A study of Mus musculus with 9 samples.

Results

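The genes described here are 9 genes of high endothelial venules and of leukocyte adhesion, chosen by name from the 54232 genes of the count table: Glycam1, Chst4, Fut7, Madcam1, Vcam1, Icam1, Selp, Sele and Itga4. They were measured by bulk RNA sequencing in lacrimal glands, which make the watery layer of the tear film, of female C57BL/6J mice fed ad libitum. There were 3 libraries at each of 3 ages, namely 2, 12 and 24 months, and no treatment or altered allele is named in any group. By its title, the series concerns lymphoid structures that arise in old lacrimal glands. Nothing in the labels ties the libraries to separate mice. The p-values therefore describe the spread among these libraries, which may be technical.

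High endothelial venules are small veins with tall endothelial cells through which lymphocytes leave the blood and enter lymph nodes. A lymphocyte first rolls on sulfated and fucosylated sugars of the endothelium, is then activated by chemokines, and stops when its integrins bind immunoglobulin-type receptors on the endothelium. Vessels of this kind are also known to form at sites of chronic inflammation where lymphocytes gather into organised clusters. Glycam1 codes for a secreted mucin of high endothelial venules that carries such sugars, and lactating mammary epithelium makes it as well. Chst4 codes for the sulfotransferase and Fut7 for the fucosyltransferase that complete the sugar, and Fut7 is also used by leukocytes for their own selectin ligands. Madcam1 codes for the addressin of mucosal venules, Vcam1 and Icam1 for receptors of leukocyte integrins, and Selp and Sele for P- and E-selectin, which endothelium shows upon activation. Itga4 codes for the alpha 4 chain of the leukocyte integrins that bind VCAM1 and MAdCAM1, so it belongs to the leukocyte side of the contact.

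The 250 bases before the annotated start of transcription (RefSeq, assembly GRCm38.p6) were available for 8 of the 9 genes, all but Vcam1. Those of 4 genes are shown. They are the mucin, an endothelial receptor, the leukocyte integrin, and the only member whose window fully matched the NF-kB consensus used here. Capitals mark matches to this 10-base consensus, searched on both strands. Near matches that miss any letter of it were not counted. Lower case holds no match.
Glycam1, chr15:103565082-103565331, minus strand: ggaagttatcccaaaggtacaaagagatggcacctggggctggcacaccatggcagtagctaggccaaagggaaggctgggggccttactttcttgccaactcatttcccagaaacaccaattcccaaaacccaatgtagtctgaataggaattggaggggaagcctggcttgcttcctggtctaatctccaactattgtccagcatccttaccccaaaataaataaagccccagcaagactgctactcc
Icam1, chr9:21015690-21015939, plus strand: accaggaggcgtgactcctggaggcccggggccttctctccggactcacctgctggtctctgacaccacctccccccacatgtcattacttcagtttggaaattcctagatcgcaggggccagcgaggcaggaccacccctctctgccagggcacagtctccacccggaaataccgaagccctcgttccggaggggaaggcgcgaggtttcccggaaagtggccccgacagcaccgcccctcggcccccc
Itga4, chr2:79255176-79255425, plus strand: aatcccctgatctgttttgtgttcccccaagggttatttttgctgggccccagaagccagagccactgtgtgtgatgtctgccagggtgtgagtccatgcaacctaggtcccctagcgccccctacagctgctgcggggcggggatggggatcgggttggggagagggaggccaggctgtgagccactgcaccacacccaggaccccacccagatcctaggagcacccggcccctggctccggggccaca
Madcam1, chr10:79664309-79664558, plus strand: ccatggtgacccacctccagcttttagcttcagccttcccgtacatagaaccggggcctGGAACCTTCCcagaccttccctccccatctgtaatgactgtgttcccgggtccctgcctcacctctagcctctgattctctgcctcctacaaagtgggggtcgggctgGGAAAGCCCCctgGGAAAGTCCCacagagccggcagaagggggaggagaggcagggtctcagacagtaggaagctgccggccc
The window of Madcam1 held 3 matches to the NF-kB consensus, GGAACCTTCC at 191 to 182, GGAAAGCCCC at 83 to 74 and GGAAAGTCCC at 70 to 61 bases before the start, which do not overlap each other. The other 7 genes had no match, and 9.55% of 32851 promoter windows of this length held at least 1. The 6-letter TATA motif TATAAA was also searched on both strands. It lay 49 to 44 bases before the start of Sele, on the strand of the gene, and in none of the other 7. A match on either strand was held by 12.4% of all windows. The match in Sele overlapped no NF-kB match. The windows of Icam1 and Itga4 were rich in G and C, at 65.2% and 64.0%, while Glycam1 had 49.6% and Sele 40.4%, beside a median of 52.4% over all windows. A match describes letters and is no evidence of binding, and the absence of one says only that the letters are not in this window.

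Each library held between 40516863 and 42573877 counts. Levels are given as CPM, the count of a gene relative to the total of its library, scaled between libraries by the trimmed mean of M values. Changes were tested by edgeR's quasi-likelihood test over all 14944 genes with enough counts, with Benjamini-Hochberg adjustment and a gene called under an adjusted p of 0.05. The labelled tissue showed in 5 genes of lacrimal acinar cells, whose summed level was 5011 to 7076 CPM in every library. Transcripts of salivary gland, which lies close by, stood high in 2 months replicate 3 (794 CPM summed over 5 genes), 12 months replicate 2 (359) and 24 months replicate 2 (244). They were at 0.399 to 67.3 CPM in the other 6 libraries, and Smr2 was at 0 in all 9. Skeletal muscle transcripts summed to 27.4 and 51.6 CPM in 12 months replicates 1 and 3 and to 0.349 to 1.12 CPM elsewhere. The calls of the tested genes were counted with and without the 3 libraries rich in salivary transcripts and the 2 with muscle transcripts. Fits without the former rest on 6 libraries. Fits without the latter keep only replicate 2 at 12 months, which is itself rich in salivary transcripts. For the lists of related genes further down, counts of calls without these libraries were added after the data had been seen. With all libraries, 808 of 14944 tested genes were called higher at 12 and 1467 at 24 months, each against 2 months. Those called lower were 377 and 1130. Without the libraries rich in salivary transcripts, 97 and 484 of 15048 were called higher and 30 and 142 lower. Counts without those libraries are to be read beside this general loss of calls.

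Of the 9 genes, 6 had enough counts to be tested, while Chst4, Madcam1 and Sele did not. Of those 6, 3 rose from 2 to 12 months (Glycam1, Vcam1 and Itga4) and 2 rose from 2 to 24 months (Glycam1 and Vcam1). Over all tested genes, 5.41% were called higher at 12 than at 2 months and 9.82% at 24 than at 2 months. None of the 6 fell in either comparison by edgeR, where 2.52% and 7.56% of all tested genes were called lower. None was called between 24 and 12 months in either direction, beside 2.79% called higher and 1.60% called lower among all tested genes. These counts of 0 were also 0 at an unadjusted p under 0.05 and by DESeq2 and limma voom. When any difference among the 3 ages was asked for, 3 of the 6 passed, beside 17.0% of all tested genes. The comparisons of 12 and of 24 with 2 months share the 2-month libraries, so their values are given side by side and do not support each other. The median change of all tested genes was 0.01 on the log2 scale in both comparisons with 2 months, and it was 0.31 in both when libraries were scaled by their totals alone, so values under that scaling are to be read against that shift. In bulk tissue, fewer cells of a type and less RNA per cell cannot be told apart, which holds for every value below.

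**Figure D1:**
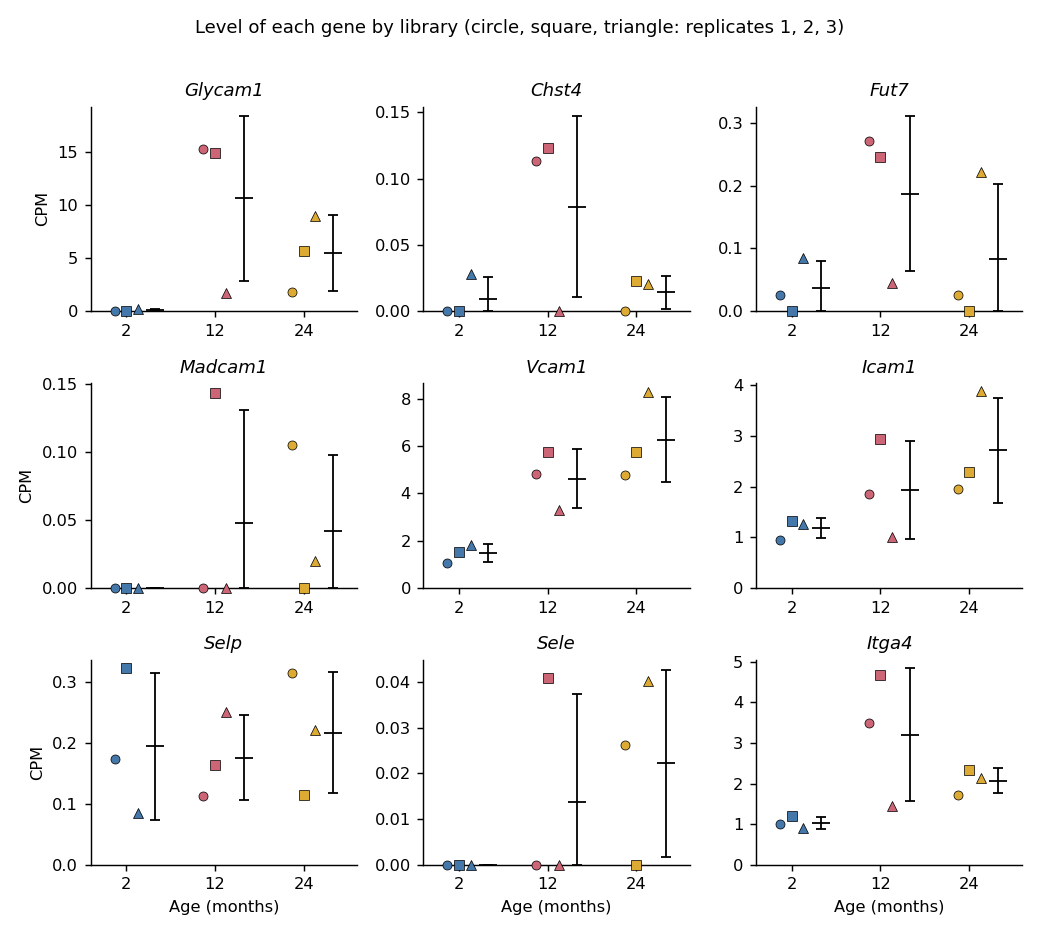
Level of each of the 9 genes in CPM (linear axis, a separate scale for each gene) against age in months, with 1 point per library; the black dash and bar are the mean and SD of 3 libraries, with bars stopped at 0. Vcam1 lies at 1.05 to 1.81 CPM at 2 months and at 3.29 CPM or more in every later library, and Selp overlaps at all 3 ages.

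Glycam1 (ENSMUSG00000022491), the mucin gene, lies on the minus strand at chr15:103562759-103565081 (GRCm38). It was nearly silent in the young gland and present in every library of both later ages. Its counts, in the order of replicates 1, 2 and 3 here and for the genes that follow, were 2, 0 and 6 in the 2-month libraries, 675, 727 and 74 in the 12-month and 70, 248 and 442 in the 24-month ones. Every later library lay far above every 2-month library, while the 12- and 24-month libraries overlapped. The level was 0.0732 ± 0.0873 CPM (SD, n = 3) at 2 months, 10.6 ± 7.72 CPM at 12 months and 5.47 ± 3.54 CPM at 24 months. The fitted rise was 139-fold from 2 to 12 months (95% interval 27.6 to 706, log2 7.12, SE 1.08, adjusted p = 0.00266, edgeR). It was 72.4-fold from 2 to 24 months (13.9 to 377, log2 6.18, SE 1.09, adjusted p = 0.00371). Both folds are set against 8 counts in all 3 young libraries together, so their size is known only within these wide intervals. Between 12 and 24 months the fitted ratio was 0.519 (0.194 to 1.39, adjusted p = 0.480), which leaves room for a fall or for a small rise.

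Single libraries moved the size of the Glycam1 rise. Without 2 months replicate 3, which holds 6 of the 8 young counts, the fold became 355 at 12 months and 185 at 24 months (log2 8.47 and 7.53, both adjusted p = 0.0166). Without the 3 libraries rich in salivary transcripts, the log2 change was 8.15 at 12 months with an adjusted p of 0.0573, no longer called, and 7.51 at 24 months with an adjusted p of 0.039. Without the 2 libraries with muscle transcripts it was 7.60 at 12 months, with only replicate 2 left at that age. Under limma voom with sample weights the log2 changes were 6.82 and 5.90 and were not called (adjusted p = 0.221 and 0.244).

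Glycam1 is also a milk protein gene, so 6 milk protein genes were read beside it. Their sum was 0 to 0.0294 CPM at 2 months, 0.0452 to 1.5 CPM at 12 months and 0.115 to 0.242 CPM at 24 months, and Wap was at 0 in all 9 libraries. Milk transcripts were highest in 12 months replicate 3, at 1.5 CPM, the library in which Glycam1 was lowest among the later ages, at 1.68 CPM. In 12 months replicate 1, Glycam1 stood at 15.2 CPM and the 6 milk genes together at 0.0452 CPM. The part of mammary epithelium in the Glycam1 level was not tested.

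The enzymes that finish the sugar were detected only in traces. Chst4 (ENSMUSG00000035930, minus strand, chr8:110029153-110039740), the sulfotransferase of high endothelial venules, had 0, 0 and 1 counts in the 2-month libraries, 5, 6 and 0 in the 12-month and 0, 1 and 1 in the 24-month ones. Most of its counts came from 12 months replicates 1 and 2, the libraries richest in Glycam1. Summed over an age, 11 counts against 1 make 12 months 8.78 times as high (95% interval from counting error alone 1.28 to 378), and the ratio of 24 to 12 months was 0.190 (0.0204 to 0.869). Such intervals leave out the spread between libraries, and Chst4 was not tested across libraries.

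Fut7 (ENSMUSG00000036587, plus strand, chr2:25423267-25426374), the fucosyltransferase, had 1, 0 and 3 counts in the 2-month libraries, 12, 12 and 2 in the 12-month and 1, 0 and 11 in the 24-month ones. The ages overlapped, and the high libraries were 12 months replicates 1 and 2 and 24 months replicate 3, which were also the 3 libraries highest in Glycam1. The level was 0.0366 ± 0.0436, 0.187 ± 0.123 and 0.0826 ± 0.121 CPM (SD, n = 3) at 2, 12 and 24 months. The fitted ratio of 12 to 2 months was 4.83 (0.754 to 30.9, adjusted p = 0.301) and that of 24 to 2 months 2.28 (0.309 to 16.8, adjusted p = 0.588). At this depth a change of Fut7 between ages was not detectable. The direction of its 24-month value rested on 1 library, since without 24 months replicate 3 the log2 value was -1.36 in place of 1.19.

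Madcam1 (ENSMUSG00000020310, plus strand, chr10:79664559-79668537), the mucosal addressin, had no counts in the 3 young libraries, which allows a level of up to 0.0274 CPM. It had 0, 7 and 0 counts at 12 months and 4, 0 and 1 at 24 months. The addressin was thus read in 3 of 6 later libraries, and not always in those rich in Glycam1: 12 months replicate 1 had 675 counts of Glycam1 and none of Madcam1. For a ratio, a floor of 3 counts was set for the young group. Scaled for library size, the summed Madcam1 counts were 1.86 times that floor at 12 months and 1.39 times at 24 months, with no test. Neither ratio is a lower limit, since the few later counts carry counting error too. All 7 counts at 12 months came from 1 library, and so did 4 of those at 24 months.

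Vcam1 (ENSMUSG00000027962, minus strand, chr3:116109949-116129688), a receptor for alpha 4 integrins, was higher in each later library than in any young one. Its counts were 42, 52 and 64 in the 2-month libraries, 213, 281 and 145 in the 12-month and 182, 251 and 411 in the 24-month ones. The level was 1.46 ± 0.386 CPM at 2 months, 4.62 ± 1.24 at 12 months and 6.26 ± 1.81 at 24 months (SD, n = 3). The rise was 3.17-fold at 12 months (2.06 to 4.87, log2 1.66, SE 0.28, adjusted p = 0.00480) and 4.30-fold at 24 months (2.80 to 6.62, log2 2.11, SE 0.29, adjusted p = 0.000858). Vcam1 was the member measured with the smallest error, and the later ages overlapped each other, with a ratio of 24 to 12 months of 1.36 (0.914 to 2.02, adjusted p = 0.401). Its rise at 12 months kept its size without the 3 libraries rich in salivary transcripts but was no longer called (log2 1.66, adjusted p = 0.077), while at 24 months it was called in that setting too (log2 2.36, adjusted p = 0.012).

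Icam1 (ENSMUSG00000037405, plus strand, chr9:21015985-21028817), the receptor for beta 2 integrins, did not pass the threshold in any comparison. Its counts were 38, 45 and 45 in the 2-month libraries, 82, 144 and 44 in the 12-month and 75, 100 and 193 in the 24-month ones. All 3 libraries at 24 months lay above the young ones, whereas 12 months replicate 3 lay among them, at 1.0 CPM against 0.947 to 1.32. The ratio of 24 to 2 months was 2.31 (1.28 to 4.16, log2 1.21, SE 0.39, adjusted p = 0.0524), and that of 12 to 2 months 1.64 (0.909 to 2.96, adjusted p = 0.307). The 24-month value fell on either side of the threshold with little change in size: it was called without 12 months replicate 2 (adjusted p = 0.0387), without 12 months replicate 3 (0.0236) and without 24 months replicate 1 (0.0441), without antigen receptor genes (0.045), and by DESeq2 (0.0155). The salivary-rich and the muscle libraries moved the 12-month log2 value of 0.72. It was 0.33 without the former (adjusted p = 0.859) and 1.31 without the latter, with only replicate 2 left at 12 months. At 24 months the log2 value was 1.38 (adjusted p = 0.137) and 1.21 (adjusted p = 0.0308).

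Of the selectins, Selp (ENSMUSG00000026580, plus strand, chr1:164115264-164150026) had 7, 11 and 3 counts in the 2-month libraries, 5, 8 and 11 in the 12-month and 12, 5 and 11 in the 24-month ones. P-selectin transcripts thus overlapped at all ages, at 0.194 ± 0.120, 0.175 ± 0.0693 and 0.217 ± 0.0999 CPM (SD, n = 3). The ratio was 0.909 at 12 against 2 months (0.333 to 2.48, adjusted p = 0.933) and 1.11 at 24 against 2 months (0.413 to 3.0, adjusted p = 0.904), intervals that still admit changes of more than 2-fold either way. The sign of the Selp values was not stable: the log2 value at 12 months was -0.14, and it was 0.18 with libraries scaled by their totals alone. Platelets store P-selectin too, and of 6 platelet genes Itga2b made up most of the sum, at 20.9 to 29.5 CPM at 2 months, 12.9 to 18.4 at 12 months and 15.3 to 15.8 at 24 months. Pf4 stood at 0.648 to 1.33, 0.768 to 1.25 and 0.665 to 2.01 CPM, Ppbp and Gp1ba at 0 to 0.264 CPM in any library, Gp9 at 0 in all but 1, and Gp6 at 0 in all 9. Their part in the Selp level was not tested.

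Sele (ENSMUSG00000026582, plus strand, chr1:164048234-164057677) lies on the same chromosome as Selp and codes for E-selectin. It had no counts at 2 months (up to 0.0274 CPM allowed), 0, 2 and 0 counts at 12 months and 1, 0 and 2 at 24 months. E-selectin transcripts were therefore at the floor of detection at every age, and no fold is given against the young group.

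Itga4 (ENSMUSG00000027009, plus strand, chr2:79255426-79333123), the leukocyte integrin chain, rose at 12 months. Its counts were 40, 41 and 32 in the 2-month libraries, 155, 229 and 64 in the 12-month and 66, 102 and 107 in the 24-month ones. The young libraries, at 0.906 to 1.20 CPM, lay below all later ones, the lowest of which was 12 months replicate 3 at 1.45 CPM. The level was 1.04 ± 0.153, 3.21 ± 1.63 and 2.07 ± 0.313 CPM (SD, n = 3) at 2, 12 and 24 months. The rise was 3.10-fold at 12 months (1.77 to 5.44, log2 1.63, SE 0.37, adjusted p = 0.0200), and the ratio was 2.00 at 24 months (1.14 to 3.52, log2 1.0, SE 0.37, adjusted p = 0.0850). The 12-month call was lost without any 1 of the 3 young libraries (adjusted p = 0.0561, 0.0642 and 0.0806 without replicates 1, 2 and 3) or without 12 months replicate 1 (0.0624) or replicate 2 (0.110), while the log2 value was between 1.26 and 1.75 in these 5 fits. It was also lost without the 3 libraries rich in salivary transcripts (log2 1.17, adjusted p = 0.343). Without the 2 with muscle transcripts, which leaves only replicate 2 at 12 months, the log2 value was 2.17. The 24-month value was called without 12 months replicate 3 (adjusted p = 0.0186) and by DESeq2 (0.0438). Exons of Itga4 overlap those of Cerkl on the other strand over 1124 bases, and those of Selp overlap Gm16587 and Gm16548; whether the counting used strand is not given in the sources used here, and these partners had at most 9 and 7 counts in any library.

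**Figure D2:**
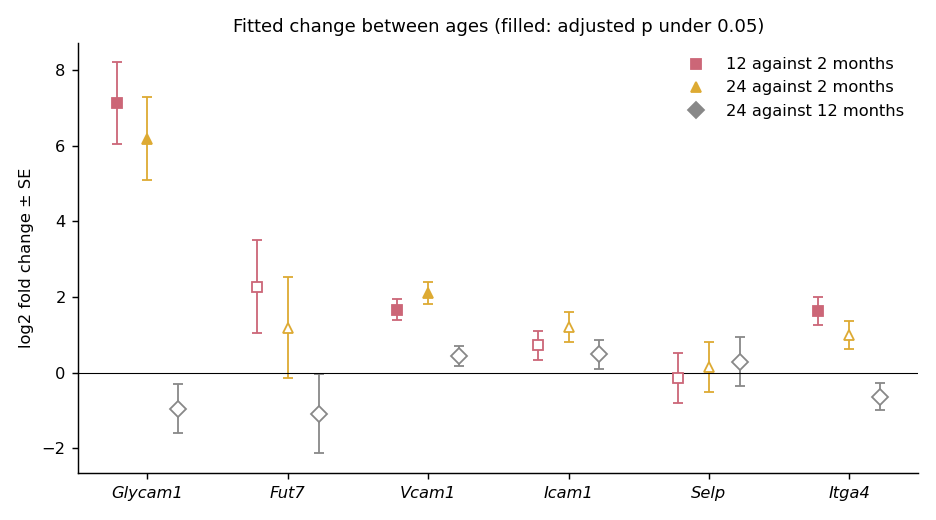
Fitted log2 fold change with its SE for the 6 tested genes in the 3 comparisons of ages; filled symbols have an adjusted p under 0.05. Glycam1 stands at 7.12 and 6.18 in the comparisons with 2 months, Vcam1 at 1.66 and 2.11, and no symbol is filled for 24 against 12 months.

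Set per length of the principal transcript (RPKM), the order of the 9 levels changed with age at its upper end. In the young gland Icam1 (0.466 ± 0.0804 RPKM, n = 3) and Vcam1 (0.421 ± 0.111) led and overlapped each other, and Glycam1 (0.117 ± 0.139) overlapped Itga4 (0.106 ± 0.0156). At 12 months Glycam1 led at 16.9 ± 12.3 RPKM, with its lowest library at 2.68 above the highest of Vcam1 at 1.66. At 24 months Glycam1 again led, at 8.71 ± 5.63 RPKM, followed by Vcam1 (1.81 ± 0.522) and Icam1 (1.07 ± 0.406), which overlapped, and then by Itga4 (0.212 ± 0.0320). The mucin gene thus had the highest level per length of the 9 at both later ages, while Vcam1 and Icam1 kept their places beside each other. Selp, Fut7, Chst4, Madcam1 and Sele stayed under 0.1 RPKM on average at every age.

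To ask whether the endothelial genes moved with the amount of endothelial RNA, they were set against 15 genes of endothelium in general. None of the 14 tested endothelial genes was called in any comparison by edgeR, DESeq2 or limma voom. Over all tested genes, edgeR called between 1.60% and 9.82% in a given direction. At an unadjusted p under 0.05, edgeR gave 1 higher at 12 months (Pecam1), none at 24 against 2 months, and 2 higher at 24 against 12 months (Eng and Tek), and none lower. Their summed level was 40.6 to 52.0 CPM at 2 months, 42.2 to 51.7 at 12 months and 46.5 to 65.0 at 24 months. Per 1000 endothelial counts, Vcam1 had 25.8, 29.3 and 41.8 counts in the 2-month libraries, 109, 111 and 78.1 in the 12-month and 103, 114 and 127 in the 24-month ones. No later library overlapped a young one on this scale, and the log2 difference was 1.63 at 12 and 1.85 at 24 months. The exact permutation test over all arrangements of the 9 libraries in 3 ages gave p = 0.0143 for any difference of Vcam1 among ages, 0.0571 after adjustment over the 4 ratios tested, where the smallest possible p is 0.00357. Leaving out single libraries gave adjusted values between 0.0286 and 0.114, under the threshold without 2 months replicate 1 (0.0286) and without 12 months replicate 1, 12 months replicate 2 or 24 months replicate 1 (0.0429 each).

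On the same scale, per 1000 endothelial counts, Icam1 had 23.3, 25.4 and 29.4 counts in the 2-month libraries, 41.9, 56.9 and 23.7 in the 12-month and 42.3, 45.5 and 59.8 in the 24-month ones (exact permutation p = 0.121, adjusted 0.186). The ages overlapped for Selp, at 4.15 ± 2.13, 3.88 ± 1.80 and 4.15 ± 2.33 (SD, n = 3; exact permutation p = 0.993). Glycam1 had 1.23, 0 and 3.92 counts in the 2-month libraries, 345, 287 and 39.9 in the 12-month and 39.5, 113 and 137 in the 24-month ones, and was not tested on this scale because a library stood at 0. The scale of the endothelial genes therefore left the order of the libraries within each age as it was in CPM for Glycam1, and kept 12 months replicate 3 as the lowest of its age for Glycam1, Vcam1 and Icam1.

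**Figure D3:**
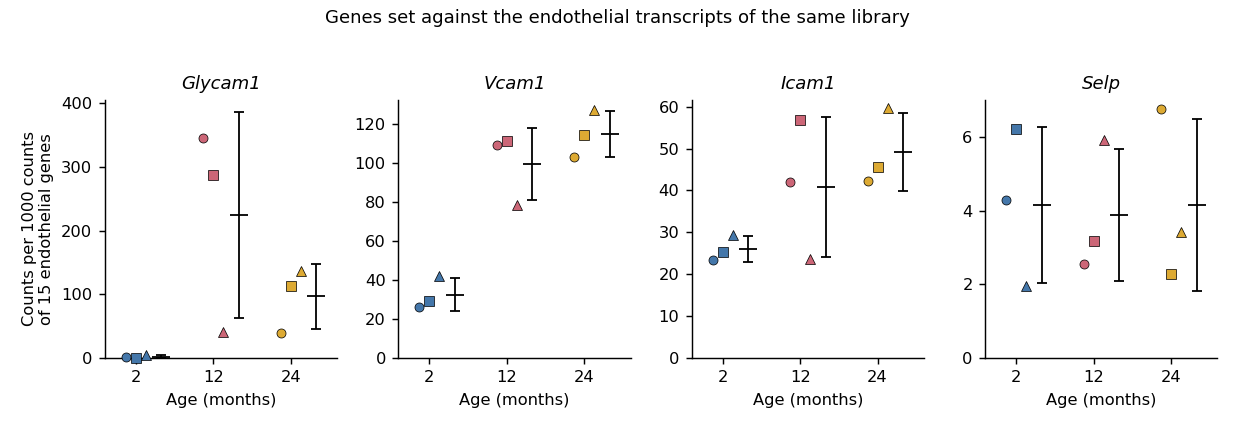
Counts of Glycam1, Vcam1, Icam1 and Selp per 1000 counts of 15 endothelial genes in the same library (linear axes from 0) against age in months; points are libraries, the black dash and bar are the mean and SD of 3. Vcam1 lies at 25.8 to 41.8 at 2 months and at 78.1 or more later, and Selp shows no separation of ages.

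For the leukocyte integrin chain, Itga4 was set against Ptprc, the gene of the leukocyte surface protein CD45. Ptprc rose at 12 months (log2 2.65, SE 0.51, adjusted p = 0.00896), and at 24 months its log2 value was 1.58 (adjusted p = 0.0505, edgeR). Per 1000 counts of Ptprc, Itga4 had 303, 1414 and 464 counts in the 2-month libraries, 235, 244 and 323 in the 12-month and 398, 386 and 272 in the 24-month ones. The ages overlapped, with log2 differences of -1.14 at 12 and -0.75 at 24 months (exact permutation p = 0.139, adjusted 0.186). Without 2 months replicate 1 the difference passed the threshold (adjusted p = 0.0286). Ptprc had only 132, 29 and 69 counts in 2 months replicates 1, 2 and 3, so the young ratios carry large counting error. Leaving out replicate 1 keeps the young libraries with the fewest Ptprc counts.

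At 12 and at 24 months, the libraries rich in Glycam1 were mostly rich in other members and in lymphocyte transcripts. Summed over 6 B cell genes, the level was 0.324 to 0.396 CPM at 2 months, 97.6, 147 and 17.1 CPM in 12 months replicates 1, 2 and 3, and 12.7, 16.0 and 23.4 CPM at 24 months. Among 12-month libraries, replicate 3 was lowest in B cell transcripts, in T cell transcripts (5.82 CPM against 19.7 and 24.3 over 6 genes) and in Glycam1, Fut7, Vcam1, Icam1 and Itga4. Among 24-month libraries, replicate 3 was highest in B cell transcripts and in Glycam1, Fut7, Vcam1 and Icam1, though not in Itga4, which was highest in replicate 2 at 2.34 CPM. Selp was highest in 12 months replicate 3 (0.250 CPM) and 24 months replicate 1 (0.314 CPM), and Madcam1 at 24 months in replicate 1. Replicate 3 at 24 months was also highest of its age in macrophage (120 CPM), fibroblast (189), endothelial (65.0) and pericyte (19.2) sums. It was lowest in the adipocyte (6.83) and salivary (0.906) sums. The part of the number of lymphocytes or other cells in the levels of the members was not tested. Across ages, what the members did depended on the libraries chosen, and none was called between 24 and 12 months. From 12 months replicate 1 to 24 months replicate 3, B cell transcripts went from 97.6 to 23.4 CPM. Glycam1 went from 15.2 to 8.90, Fut7 from 0.271 to 0.221 and Itga4 from 3.50 to 2.15 CPM. Vcam1 went from 4.81 to 8.28 and Icam1 from 1.85 to 3.89 CPM. From 12 months replicate 3 to 24 months replicate 1, B cell transcripts went from 17.1 to 12.7 CPM and Fut7 from 0.0454 to 0.0262 CPM. Glycam1 went from 1.68 to 1.83, Itga4 from 1.45 to 1.73, Vcam1 from 3.29 to 4.77 and Icam1 from 1.0 to 1.96 CPM.

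Other cell types moved with age as well. Their counts are read beside the 5.41% and 9.82% of all tested genes that edgeR called higher at 12 and 24 months. All 6 macrophage genes were called higher at 24 than at 2 months by edgeR (5 by limma voom), and their sum was 28.7 to 41.1, 58.0 to 69.8 and 85.9 to 120 CPM at 2, 12 and 24 months. Of 6 fibroblast genes, 4 were called higher at 24 months (2 by limma voom), with sums of 69.9 to 123, 79.3 to 91.1 and 121 to 189 CPM. All 6 adipocyte genes were called higher at both later ages by edgeR and DESeq2, and 1 at each age by limma voom or without the salivary-rich libraries, with sums of 1.26 to 1.41, 4.99 to 22.9 and 6.83 to 17.3 CPM. The 5 pericyte genes, at 10.1 to 13.7, 9.62 to 12.6 and 12.7 to 19.2 CPM, held no call by edgeR; at 24 against 2 months 2 were higher at an unadjusted p under 0.05 and 1 was called higher by DESeq2. Macrophages and fibroblasts can express Vcam1 and Icam1, and the part of these cells in the levels of both genes was not tested.

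**Figure D4:**
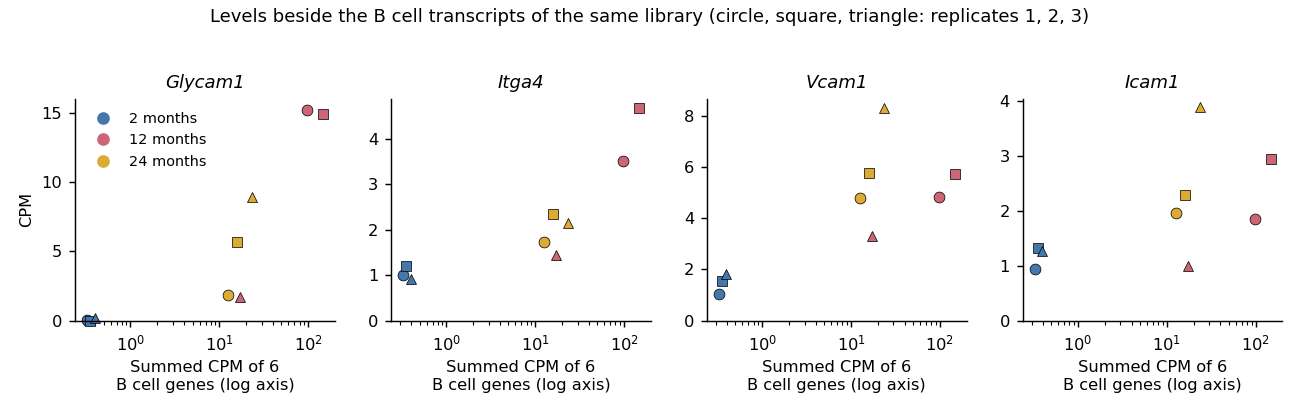
Level of Glycam1, Itga4, Vcam1 and Icam1 in CPM (linear axis) against the summed CPM of 6 B cell genes in the same library (log axis), 1 point per library coloured by age. The 2-month libraries sit at the lower left of each panel at 0.324 to 0.396 CPM of B cell genes, and 12 months replicate 3 sits among the 24-month libraries on the horizontal axis.

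Over the 9 libraries, Pearson correlations of log2(CPM + 0.5) described which members varied together. They share the age steps and the libraries, and are given with no test. Glycam1 went with Itga4 (r = 0.93) and Vcam1 (r = 0.90), and Vcam1 with Icam1 (r = 0.87), whereas Selp had r between -0.36 and -0.06 with the other 5 tested members. Among all other tested genes, those near to Glycam1 included Fermt3 (0.987) and Vav1 (0.984). Itga4 was nearest to Fli1 (0.989), Siglecg (0.989) and Nxpe3 (0.983), and Vcam1 to Basp1 (0.983), Slco2b1 (0.982) and Crip1 (0.979). Icam1 was nearest to Pip4k2b (0.987), Cfl1 (0.969) and Znfx1 (0.960), Fut7 to Skap1 (0.967), Cd27 (0.945) and Flt3 (0.938), and Selp to Cnnm3 (0.944), Nepro (0.934) and Ntan1 (0.925). Siglecg, a lectin of B cells, shows the shape shared with Itga4: 0.0566 to 0.176 CPM at 2 months, 6.71 and 0.704 CPM in 12 months replicates 1 and 3, and 1.34 to 1.87 CPM at 24 months.

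Around the mucin, 14 genes for other carriers and for synthesis of such sugars were read. Over all tested genes, edgeR called 5.41% higher and 2.52% lower at 12 against 2 months, and 9.82% and 7.56% at 24 against 2 months. Between 24 and 12 months it called 2.79% higher and 1.60% lower. The counts of this list and of those that follow are to be read beside these shares. At 12 against 2 months 1 of 14 was called higher and none lower (median log2 0.01, beside 0.01 over all tested genes; none lower by DESeq2 or limma voom, 2 at an unadjusted p under 0.05). The 1 called gene was Chst2, which codes for a second sulfotransferase acting on these sugars. Chst2 had 14, 19 and 17 counts in the 2-month libraries, 61, 74 and 59 in the 12-month and 20, 31 and 76 in the 24-month ones. Unlike Glycam1, it was alike in all 3 libraries at 12 months; it rose by log2 1.61 (SE 0.43, adjusted p = 0.0381) and had log2 1.01 at 24 months (adjusted p = 0.129). Its call was lost without the salivary-rich libraries. At 24 against 2 months 2 were called higher and 2 lower (median 0.23), and without the salivary-rich libraries 0 and 1. Cd34, a sialomucin of vessels and of stromal cells, rose by log2 0.68 (SE 0.18, adjusted p = 0.0232), and the sialyltransferase gene St3gal6 by log2 1.02 (adjusted p = 0.0242). Papss2 and Papss1, which make the sulfate donor in many cell types, fell by 1.06 (adjusted p = 0.000806) and 0.41 (adjusted p = 0.0208) on the log2 scale. From 12 to 24 months, Cd34 rose by log2 0.85 (adjusted p = 0.0190) and Papss2 fell by 0.93 on that scale (adjusted p = 0.00360), with a list median of -0.19 beside -0.02 over all tested genes.

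On the leukocyte side, 8 of 13 genes of integrins and selectin ligands were called higher at 12 months and 8 at 24 months. Over all tested genes, 5.41% and 9.82% were called higher at these ages. The medians were 1.73 and 1.56, beside 0.01 over all tested genes. Without the salivary-rich libraries 0 and 4 were called higher, and by limma voom 6 and 5. Without the muscle libraries 8 were called higher at 24 months. None was called lower at either age by edgeR or limma voom, with 1 lower by DESeq2 at each age, and 1 and 0 at an unadjusted p under 0.05 at 12 and 24 months. The partner chains of alpha 4 differed: Itgb7 rose by log2 2.05 at 12 months (adjusted p = 0.0121) and by 1.59 at 24 months (adjusted p = 0.0239), whereas Itgb1, used by nearly all cells, had 0.10 and 0.18 (adjusted p = 0.541 and 0.191). Itgb2 and Itgal, the chains of the integrin that binds ICAM1, rose by log2 1.84 (adjusted p = 0.00396) and 2.77 (adjusted p = 0.00830) at 12 months. Cd44 and Spn, which can carry selectin ligands, rose by log2 1.73 and 2.65 at 12 months (adjusted p = 0.00207 and 0.00265), and Selplg, the main ligand of P-selectin, by 1.54 (adjusted p = 0.0172). Itgax, an integrin chain of dendritic cells and macrophages, rose by log2 1.44 and 1.37 at the later ages (adjusted p = 0.00397 and 0.00328).

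Among 12 other adhesion and transmigration molecules of endothelium, none was called higher and 2 lower at 12 months, and 1 higher and 1 lower at 24 months (medians 0.11 and 0.20). Over all tested genes, 5.41% were called higher and 2.52% lower at 12 months, and 9.82% and 7.56% at 24 months. Neither of the 2 lower calls at 12 months was kept without the salivary-rich libraries or by limma voom. At 24 months the lower call was lost without the salivary-rich libraries. The counts of 0 higher at 12 months by edgeR and limma voom compare with 2 by DESeq2 and 2 at an unadjusted p under 0.05. Jam2, a junctional adhesion molecule, fell by 1.03 on the log2 scale at 12 months (SE 0.26, adjusted p = 0.0315), the direction opposite to Vcam1, and stood at -0.06 at 24 months (adjusted p = 0.904). Alcam fell by 0.28 (adjusted p = 0.0488) at 12 and 0.47 (adjusted p = 0.00279) at 24 months on that scale. Stab1, a scavenger receptor of endothelium and macrophages, rose by log2 1.32 at 24 months (adjusted p = 0.00364). Between 24 and 12 months none of the 12 was called by edgeR or limma voom, with 2 higher and 2 lower at an unadjusted p under 0.05 and 1 each way by DESeq2.

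Lymphotoxin and TNF signal through NF-kB, and lymphotoxin keeps high endothelial venules in their specialised state. Of 15 tested genes of this group, 3 were called higher at 12 months and 3 at 24 months, with 1 called lower at 24 months (medians 0.28 and 0.16). Over all tested genes, 5.41% and 9.82% were called higher at these ages and 7.56% lower at 24 months. Without the salivary-rich libraries 1 was called higher at each age and none lower. Without the muscle libraries 2 were called higher and 1 lower at 24 months. None was called lower at 12 months by edgeR, DESeq2 or limma voom or at an unadjusted p under 0.05. Ltb, a lymphotoxin chain made by lymphocytes, had 23, 15 and 16 counts in the 2-month libraries, 414, 659 and 130 in the 12-month and 59, 129 and 210 in the 24-month ones. It had the same lowest library at 12 months and the same highest library at 24 months as Glycam1, and rose by log2 4.12 (SE 0.54, adjusted p = 0.00120) and 2.57 (adjusted p = 0.00860). Lta, the other lymphotoxin chain of the list, had too few counts for a test. It had 0, 5 and 1 counts in the 2-month libraries, 34, 60 and 2 in the 12-month and 5, 1 and 5 in the 24-month ones. At 24 months and in 12 months replicate 3 it thus lay within the young range of counts. Tnfrsf1b, a TNF receptor, rose by log2 1.59 and 1.65 (adjusted p = 0.00265 and 0.00129), and Tnfsf14, which codes for the cytokine LIGHT, by 3.17 and 2.83 (adjusted p = 0.0178 and 0.0195). Il1r1, an interleukin 1 receptor, fell by 0.60 on the log2 scale at 24 against 2 months (adjusted p = 0.00687) and at 24 against 12 months (adjusted p = 0.0157).

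Of 8 tested chemokines, receptors and related signals of lymphocyte entry, 6 were called higher at 12 months and 6 at 24 months (medians 2.70 and 2.17). Over all tested genes, 5.41% and 9.82% were called higher at these ages. By limma voom 1 and 3 were called higher, and without the salivary-rich libraries 3 and 5. Without the muscle libraries 6 were called higher at 24 months. There were none lower at either age by edgeR, DESeq2 or limma voom or at an unadjusted p under 0.05. Cxcl13 codes for a chemokine that attracts B cells. It had 1, 0 and 1 counts in the 2-month libraries, 168, 436 and 91 in the 12-month and 84, 191 and 411 in the 24-month ones. It resembled Glycam1 in being near 0 in the young gland and rose by log2 7.86 and 7.87 (adjusted p = 0.000770 and 0.000414). Its receptor gene Cxcr5 rose by log2 8.50 and 6.47 (adjusted p = 0.000790 and 0.00338), and Cxcr4 by 3.41 and 3.02 (adjusted p = 0.000461 and 0.000249). S1pr1, the receptor by which lymphocytes leave tissue, rose at 12 months by log2 1.44 (adjusted p = 0.0255) and had 0.33 at 24 months (adjusted p = 0.564). Cxcl12 rose by log2 0.62 at 12 months (adjusted p = 0.0498) and 1.26 at 24 months (adjusted p = 0.00111). The chemokines typical of lymph node venules and T cell areas were scarce: Ccl21a had 2 counts, both in 12 months replicate 2, and Ccl19 had 0 to 12 counts per library, most in that same library. Ackr1, a chemokine-binding receptor of venular endothelium, had 2, 5 and 5 counts in the 2-month libraries, 22, 34 and 7 in the 12-month and 25, 15 and 25 in the 24-month ones. Ackr1 rose at 24 months (log2 2.14, SE 0.67, adjusted p = 0.0449), and its 12-month log2 value was 2.00 (adjusted p = 0.0909). Between 24 and 12 months none of the 8 was called by edgeR or limma voom, with 1 higher and 2 lower at an unadjusted p under 0.05 and 1 each way by DESeq2.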

How the data were processed

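RNA from lacrimal glands was sequenced as 100-base read pairs. The authors deposited raw counts per gene and log2 values; per the submitters' processing notes the tools were cutadapt, FastQC, STAR, HTSeq and DESeq2, with build GRCm38. In the deposited log2 column, 100% of values equalled log2(count/size factor + 1) within 1e-06, so the counts were tested and the log2 values were not used further. Symbols, positions and transcript lengths came from GENCODE M21; 67 genes without a symbol held at most 0.001% of a library's counts.

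Counts were fitted with edgeR 4.0.16 (R 4.3.3): scaling by TMM, a minimum count of 10 in filterByExpr, age as the only term, all 9 libraries, 6 residual degrees of freedom. Fold intervals are 95%. DESeq2 1.42.0, limma 3.58.1 (voom with sample weights), other scalings and filters, a replicate block and leaving out libraries were alternatives. Code was tested on simulated data. Ratios used an exact permutation test. No pair of replicates agreed within sampling noise, and same-numbered libraries did not vary together (r -0.15 to 0.06 over 9 pairs).

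Members and lists were chosen with earlier results of these data known. Named were all 9 members; of each pathway list, up to 4 called genes with the smallest p in a comparison and any count of 5 or fewer; Ptprc; and for each tested member its 3 nearest genes; some values that this rule would name are not reported here. Itgb1, Itgb7, Itgal, Selplg, Lta, Ccl19, Ccl21a, Ackr1, Pecam1, Eng and Tek fall outside that rule and were named after their values were seen.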

Additional observations from a re-analysis of the deposited data

How the results depend on the processing

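Over the 29 results recomputed, 503 of 555 values under an alternative kept their direction and their side of the threshold. The number of members called higher at 12 months, 3, became 0 without the 3 libraries rich in salivary transcripts. The number that differed among ages, 3, became 1 in that setting. Those fits have fewer libraries. Over all tested genes, the number called higher at 12 months went from 808 of 14944 to 97 of 15048 in the same setting. Most calls were thus lost there, not only those of the members. The number called higher at 24 months, 2, became 4 with library totals alone, with no count filter, by DESeq2, with only the 6 libraries compared, and without the 2 libraries with muscle transcripts, where Icam1 and Itga4 were added, 3 without antigen receptor genes (Icam1 added, adjusted p = 0.045), and 1 by limma voom; leaving out single libraries gave 2 to 4. The number called lower between 12 and 24 months, 0, became 1 with no count filter (Glycam1, log2 -0.93, SE 0.19, adjusted p = 5.94e-05). In the main fit the Glycam1 value was nearly the same, at -0.95, with a far larger SE of 0.65. The call thus went with a smaller fitted error and not with a larger change. In these cases the cause was not tested. Leaving out single libraries gave adjusted p between 0.0286 and 0.114 for Vcam1 per endothelial count and between 0.0286 and 0.419 for Itga4 per count of Ptprc.

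Log2 values that changed sign were those of Selp at 12 against 2 months (-0.14; 0.18 with library totals alone, 0.16 by limma voom, -0.49 to 0.41 with single libraries left out), Selp at 24 against 2 months (0.16; -0.19 to 0.71 with single libraries left out, lowest without 2 months replicate 3 or 24 months replicate 1), Selp at 24 against 12 months (0.29; -0.05 to 0.65, lowest without 24 months replicate 1), Fut7 at 24 against 2 months (1.19; -0.67 by limma voom, -1.36 to 2.46 with single libraries left out, lowest without 24 months replicate 3) and Icam1 at 24 against 12 months (0.49; -0.10 without the 2 libraries with muscle transcripts). None of these was called in either setting. With a replicate block, the number called higher stayed 3 at 12 and 2 at 24 months, with Glycam1 at log2 7.09 (adjusted p = 0.0146), Vcam1 at 1.69 (0.0146) and Itga4 at 1.55 (0.0368) at 12 months, and the block changed no call; the shared numbers do not pair the libraries. Depth limits Chst4, Madcam1, Sele, Fut7 and Selp, which had at most 12 counts in any library.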
